A study of Homo sapiens with 2 samples.

Results

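The regions described here are the CUT&Tag peak regions of CAL27 cells that lay in neighbourhoods dense in sequencing tags. CAL27 is an established oral squamous cell carcinoma line. CUT&Tag cuts DNA next to an antibody's target with a tethered Tn5 transposase and sequences the fragments, and here the antibody was against lactylated lysine on any protein. There were 2 libraries, 1 from CAL27 cells given 10 mM lactate for 24 hours and 1 from untreated CAL27 cells. With 1 library per group no difference has a replicate check and no test was run. The 95% intervals are exact Clopper-Pearson intervals that cover counting error only, and tags are not independent molecules.

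A region was counted as of high local background when the tag density of the 10-kb window around its summit was at least 4 times the lowest value of its library. Only chromosomes 1 to 22 were used, and a dense domain on the short arm of chromosome 11 was left out by the same rule. This gave 9105 of 49055 regions (18.6%) in the lactate library and 5873 of 42551 (13.8%) in the untreated library. Over both lists they were 14961 unique regions of 93928, and 17 had the same start and end in both. These counts are fixed by the rule and are a description. The libraries are called lactate and untreated below after their sample labels. The headers and peak names of each list carry the other sample's name, so every direction between the libraries turns if the lists were exchanged.

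Lysine lactylation is an acyl mark derived from lactate that is found on histones, where it is known mainly at active promoters and enhancers, and on other proteins. The local background is the tag density that the peak caller expects around a peak, never under the genome-wide rate, and a peak is called when its summit stands above it. The background rises where many tags fall across a window of 10 kb. Extra copies of a chromosome segment in a tumour genome, repeat families whose copies are collapsed into 1 sequence of the reference, and wide clusters of accessible chromatin can each give such a window. Pericentromeric satellite DNA and nuclear copies of mitochondrial DNA are well known for such pile-ups. Copy number was not measured by these files and a library without antibody was not analysed, so these sources cannot be told apart by the peak lists.

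Promoters are shown first, since several of the densest windows outside centromeres lay over gene starts. The 4 printed promoters were overlapped by a high-background region in both libraries and come from RefSeq for GRCh38.p14, from 250 bases before to 50 bases after the start, 5′ to 3′ on the gene's strand. Capitals mark GGGCGG, the core of a GC box bound by Sp1-family factors, and TGACTCA, the AP-1 element, on either strand. MICALL2, which encodes an actin-binding regulator of junction traffic, and ADAP1, an Arf GTPase-activating protein gene, lie in the wide stretch of chromosome 7. C11orf68 lies in that of chromosome 11, and the lncRNA gene LINC02029 next to a dense site of chromosome 3.
MICALL2, chr7:1459421-1459720, minus strand: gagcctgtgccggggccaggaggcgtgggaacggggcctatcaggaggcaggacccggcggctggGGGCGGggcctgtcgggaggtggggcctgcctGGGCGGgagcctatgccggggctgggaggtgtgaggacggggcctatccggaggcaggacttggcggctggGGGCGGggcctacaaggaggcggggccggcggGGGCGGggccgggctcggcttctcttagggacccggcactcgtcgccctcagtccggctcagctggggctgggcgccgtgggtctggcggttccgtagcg
ADAP1, chr7:945767-946066, minus strand: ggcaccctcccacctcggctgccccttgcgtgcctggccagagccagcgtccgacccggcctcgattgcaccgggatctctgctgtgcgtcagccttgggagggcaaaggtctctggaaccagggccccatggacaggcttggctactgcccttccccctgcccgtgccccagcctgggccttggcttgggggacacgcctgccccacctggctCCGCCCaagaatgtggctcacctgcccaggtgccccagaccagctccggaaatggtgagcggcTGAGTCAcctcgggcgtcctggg
C11orf68, chr11:65919013-65919312, minus strand: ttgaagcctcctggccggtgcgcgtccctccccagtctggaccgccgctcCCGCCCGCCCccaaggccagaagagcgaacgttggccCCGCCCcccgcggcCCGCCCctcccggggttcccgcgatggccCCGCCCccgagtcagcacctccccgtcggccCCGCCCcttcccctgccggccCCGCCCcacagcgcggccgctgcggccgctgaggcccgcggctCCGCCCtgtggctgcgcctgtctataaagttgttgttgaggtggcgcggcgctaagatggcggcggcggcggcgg
LINC02029, chr3:157081591-157081890, plus strand: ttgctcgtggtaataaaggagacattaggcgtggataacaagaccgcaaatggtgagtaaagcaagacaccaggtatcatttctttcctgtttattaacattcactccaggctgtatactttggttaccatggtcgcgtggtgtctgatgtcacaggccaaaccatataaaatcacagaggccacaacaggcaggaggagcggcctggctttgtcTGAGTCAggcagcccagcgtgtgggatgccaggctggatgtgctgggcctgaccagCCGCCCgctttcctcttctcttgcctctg
The MICALL2 promoter held 4 GGGCGG matches and no TGACTCA, and its region had a relative background of 18.6 in the lactate library and 16 in the untreated library. The C11orf68 promoter held 8 GGGCGG matches, with relative backgrounds of 17.2 (lactate) and 12.6 (untreated). ADAP1, with 14.3 (lactate) and 12.3 (untreated), and LINC02029, with 16.2 (lactate) and 13.2 (untreated), each held 1 match of both motifs. GC content was 77.3% at C11orf68 and 51.7% at LINC02029. The 4 were picked after their values were seen, MICALL2 as the promoter of highest background, C11orf68 for its GC boxes, and ADAP1 and LINC02029 because they hold both motifs, so they do not stand for promoters of dense windows in general.

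Relative background, the local background over the lowest of its library, had a median of 5.29 in the lactate library and 5.08 in the untreated library over the high-background regions. The upper quartile was 6.66 (lactate) and 6.18 (untreated). In the lactate library 3783 (41.5%) were under 5, and in the untreated library 2770 (47.2%). At 8 or more there were 1192 (lactate) and 546 (untreated), and at 20 or more 33 (lactate) and 19 (untreated). The highest values were 52.4 (lactate) and 59.3 (untreated). The threshold stood at 196 (lactate) and 203 (untreated) tags per 10 kb. The region just inside it had 4.0182 in the lactate library (chromosome 10 from 132685427 to 132685765) and 4.0089 in the untreated library (chromosome 2 from 28639886 to 28640085). The region just outside it had 3.9977 (chromosome 15 from 56040003 to 56040217) in the lactate library and 3.9892 (chromosome 3 from 123732534 to 123732757) in the untreated library. No gap separates the high-background regions from the rest, as the histogram of relative backgrounds shows.

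**Figure D1:**
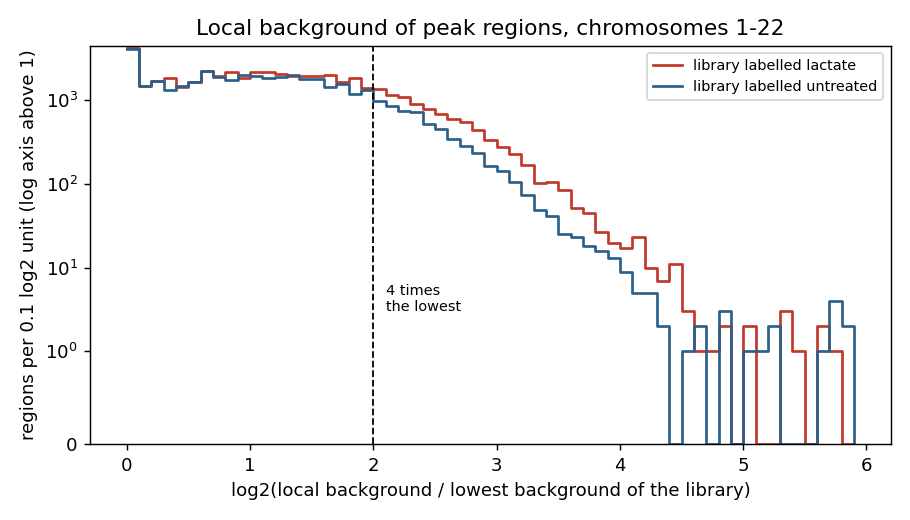
Number of peak regions on chromosomes 1 to 22 (log axis above 1) by log2 of the local background over the library's lowest, with the lactate library in red and the untreated library in blue. The dashed line is the threshold of 4 times the lowest; 9105 (lactate) and 5873 (untreated) regions outside the left-out domain lie at or right of it, and the counts decline smoothly through it.

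The high-background regions were wider, taller and more often at genes than the rest. In the lactate library their median length was 394 bp against 307 bp in the other regions, and in the untreated library 365 bp against 296 bp. Regions of more than 1 summit were 27.9% against 11.6% in the lactate library and 25.2% against 9.86% in the untreated library. Median pileup at the summit was 28 against 13 tags in the lactate library and 26 against 13 in the untreated library. Median fold enrichment was 4.41 against 4.96 in the lactate library and 4.08 against 4.72 in the untreated library, and both quantities enter the rule. Summits within 1 kb of either end of a protein-coding gene were 26.1% (25.2 to 27) of the high-background regions and 18.3% (17.9 to 18.7) of the rest in the lactate library. The shares were 23.9% (22.8 to 25) and 18.5% (18.1 to 18.9) in the untreated library. Summits outside any annotated gene and also farther than 1 kb from a protein-coding gene end were fewer among them. They were 22.6% against 31.1% in the lactate library and 23.9% against 31.3% in the untreated library.

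The tags of the peaks themselves are part of the background, since no control was used. An upper estimate from pileup and length put the share of the window's tags from called regions within 5 kb at a median of 43.5% in the lactate library and 34.4% in the untreated library. Over the other regions it was 29.8% (lactate) and 25.6% (untreated). Another called region lay within 5 kb more often, since 37.9% of high-background regions against 76.4% of the rest stood alone in the lactate library, and 44.9% against 79.9% in the untreated library. With this estimate taken off, 2415 (26.5%) in the lactate library and 1814 (30.9%) in the untreated library still had 4 times the lowest background.

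The high-background regions recurred between the libraries. Of those in the lactate library 72.9% (71.9 to 73.8) overlapped any region of the untreated library, against 58.5% of the rest, and 52.8% overlapped a high-background region there. Of those in the untreated library 86.2% (85.3 to 87) overlapped a region of the lactate library, against 68.8% of the rest, and 83.4% overlapped a high-background one. Where a region was found in both libraries but passed the threshold only in the lactate library, as 1823 did, the median relative background was 4.37 there and 3.63 in the untreated library. Of the 6634 that overlapped, 0 had a relative background under 2 in the untreated library. Regions found in both that passed the threshold in the lactate library alone thus lay near it in the untreated library, while the 2471 with no overlapping region have no value there.

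By 1-Mb bin, 1202 of 2611 bins with a peak region held high-background regions, and 933 held them in both libraries. The 12 bins with the most held 1252 (8.36%) and the first 100 held 35.1%. A bin was called raised when the median relative background of all its regions, high or not, was at least 1.5 times that of chromosomes 1 to 22 in both libraries. Of 2096 bins with at least 5 regions in both libraries 151 were raised. A wide stretch was a run of at least 3 raised bins in which 1 bin that fell short was allowed, and 12 such stretches were found. Of these 8 held a bin that fell short, and 3 had no 3 raised bins in a row, on chromosome 3 from 194 to 198 Mb and on chromosome 19 from 0 to 5 Mb and from 35 to 39 Mb. These stretches held 18.6% of the high-background regions and 6.04% of all regions in the lactate library. In the untreated library they held 22.6% of the high-background regions and 5.9% of all regions. The stretches were chosen by these same background values, so the higher share is built in and is a description. The bin medians ranked the genome much alike in both libraries, with a Spearman rho of 0.92 over the 2096 bins, which share the genome and its gene content.

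**Figure D2:**
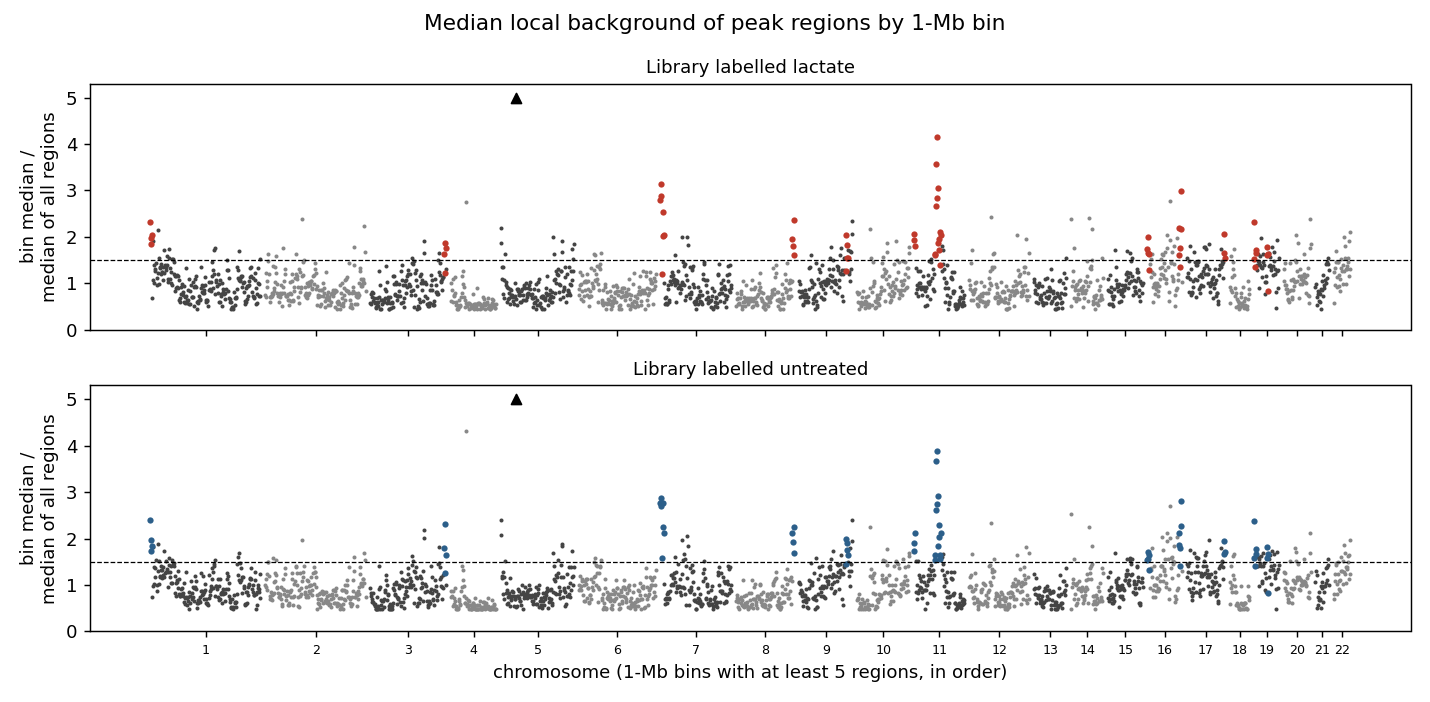
Median relative background of the peak regions in each 1-Mb bin, over the median of all regions, by chromosome, with the lactate library above and the untreated library below. Coloured points are bins of the 12 wide stretches, the dashed line is 1.5, and the triangle is a bin of chromosome 5 in the gene-free stretch of its centromere, at 16.5 (lactate) and 18.6 (untreated), drawn at 5. The highest coloured points are on chromosome 11, at 4.15 (lactate) and 3.89 (untreated).

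The longest stretch ran on chromosome 11 from 61 to 74 Mb. It held 471 high-background regions of 681 (69.2%) in the lactate library and 372 of 589 (63.2%) in the untreated library, among 306 protein-coding genes. Its densest bin, from 65 to 66 Mb, held 89 high-background regions of 97 (lactate) and 67 of 75 (untreated). The site of highest background there was in NEAT1, the lncRNA scaffold of paraspeckles, with relative backgrounds of 23.4 in the lactate library and 18.2 in the untreated library. Regions at the ends of C11orf68 reached 22.2 (lactate) and 16.2 (untreated), and at FIBP, which encodes a binding protein of acidic fibroblast growth factor, 18.5 (lactate) and 16 (untreated). FOSL1 encodes the AP-1 subunit FRA-1. A region at its ends, shared with the neighbouring CCDC85B, reached 21.1 in the lactate library, and 10.6 was reached in the untreated library, where the highest region was at the other end of the gene. In the next bin a region between RIN1, a Ras effector gene, and BRMS1, a metastasis suppressor gene, had 18.3 (lactate) and 15.6 (untreated). The 11q13 cyclin D1 segment, a frequent amplification in head and neck cancer, lies inside this stretch, but its bins were not its highest.

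The stretch at the start of chromosome 7, from 0 to 7 Mb, had the largest share of its regions over the threshold among the 12, with 283 of 385 (73.5%) in the lactate library and 242 of 332 (72.9%) in the untreated library. It holds 11 protein-coding genes per Mb, the fewest of the 12 stretches. Its bins stood at 2.42 (lactate) and 2.45 (untreated) times the median of bins with a like number of genes, the highest of the 12. Regions at MICALL2 reached 19 in the lactate library and 16 in the untreated library. At TMEM184A they reached 17.3 (lactate) and 14.7 (untreated), and at LFNG, which encodes a glycosyltransferase of Notch receptors, 13.9 (lactate) and 12.1 (untreated). PDGFA, a platelet-derived growth factor gene, had 7.36 (lactate) and 6.42 (untreated). At ACTB, the beta-actin gene, 17.6 was found in the lactate library and no high-background region at its ends in the untreated library. At FSCN1, the gene of the actin bundler fascin, 15.6 was found in the untreated library and none in the lactate library. Such an absence can be a region under the threshold or no called region, and gives no background value.

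The other 10 stretches were shorter. On chromosome 3 from 194 to 198 Mb, 97 of 229 regions (42.4%, lactate) and 87 of 192 (45.3%, untreated) were high. HES1, a Notch target and transcriptional repressor, reached 8.59 in the lactate library and 7.37 in the untreated library. On chromosome 8 from 141 to 145 Mb they were 55% (lactate) and 53.1% (untreated), with backgrounds of 12.5 (lactate) and 9.46 (untreated) between MROH6 and NAPRT, a gene of NAD synthesis. On chromosome 16 from 84 to 90 Mb they were 58.2% (lactate) and 54.8% (untreated), with backgrounds of 12.2 (lactate) and 9.44 (untreated) at MC1R and TUBB3, which encode the melanocortin receptor and a neuronal beta-tubulin. These 3 stretches stood at 1.67 to 1.95 (lactate) and at 1.65 to 1.97 (untreated) times bins of like gene number.

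The stretches richest in genes stood less far above like bins. On chromosome 16 from 0 to 5 Mb, with 37.6 genes per Mb, 47.3% of regions in the lactate library and 35.7% in the untreated library were high, at 1.22 (lactate) and 1.14 (untreated) times like bins. TNFRSF12A, the receptor gene of the cytokine TWEAK, had 12.3 (lactate) and 8.51 (untreated) there. On chromosome 19 from 0 to 5 Mb the shares were 44.9% (lactate) and 44.1% (untreated), at 1.22 times like bins in both. GPX4 there, whose product reduces lipid peroxides, had 10.4 (lactate) and 7.92 (untreated). On chromosome 19 from 35 to 39 Mb they were 32.6% (lactate) and 28.2% (untreated), at 1.16 (lactate) and 1.19 (untreated) times, with YIF1B at 9.16 (lactate) and 7.74 (untreated). The remaining stretches were on chromosome 1 from 0 to 4 Mb (lactate 58.2%, untreated 46.1%), chromosome 9 from 124 to 129 Mb (lactate 46.3%, untreated 38.8%), chromosome 11 from 0 to 3 Mb (lactate 54.7%, untreated 49.5%) and chromosome 17 from 81 to 84 Mb (lactate 53.2%, untreated 44.4%). Among their genes were LCN2, which encodes the iron-carrier-binding lipocalin 2, with 7.71 (lactate) and 5.92 (untreated), and PKP3, a desmosomal plakophilin gene, with 8.92 (lactate) and 7.27 (untreated). SLC16A3, the gene of the lactate exporter MCT4, had 7.48 in the lactate library and no high-background region at its ends in the untreated library. That absence gives no background value for the untreated library and is not read as a difference.

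Gene number moved with the background across the genome. Among bins with 0 to 2 protein-coding genes 6 of 421 were raised, and among bins with 21 to 64 genes 64 of 191. The share of regions of high background was 7.42% in the lactate library and 5.07% in the untreated library in bins of 0 to 2 genes. In bins of 21 to 64 genes it was 37.9% (lactate) and 30.3% (untreated). Across the 22 chromosomes, the share against genes per Mb had a Spearman rho of 0.808 (lactate) and 0.799 (untreated), as a description of chromosomes that share each library. Chromosome 16 was highest, with 36% (lactate) and 30.6% (untreated), and chromosome 19, which has the most genes per Mb, followed with 32.5% (lactate) and 25.8% (untreated). The lowest shares were 4.77% on chromosome 4 in the lactate library and 3.3% on chromosome 13 in the untreated library. The number of regions in a bin moved with its median background too, with rho of 0.749 (lactate) and 0.763 (untreated) over 2096 bins. The part of gene density and peak density in the stretches was not tested further than by the like bins.

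**Figure D3:**
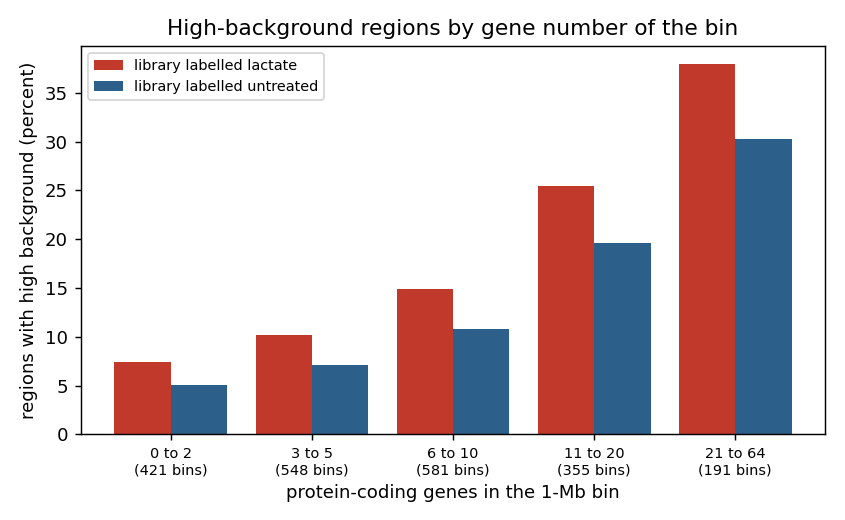
Share of peak regions with high local background in 1-Mb bins grouped by their number of protein-coding genes, with the lactate library in red left of the untreated library in blue. The shares climb with gene number in both, reaching 37.9% (lactate) and 30.3% (untreated) in bins of 21 to 64 genes.

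Chromosome arms of like gene density differed sharply. These arms were picked for description after their values were seen. On 3q, 20% of 2593 regions in the lactate library and 15.6% of 2409 in the untreated library had high background. On 3p the shares were 4.39% of 751 (3.04 to 6.12) in the lactate library and 1.48% of 542 (0.639 to 2.89) in the untreated library. The arms hold 5.41 (3q) and 5.45 (3p) protein-coding genes per Mb. Median relative background over all regions of 3q was 1.7 times that of 3p in the lactate library and 1.78 times in the untreated library. With the peaks' own tags taken off it was 1.56 (lactate) and 1.65 (untreated) times. The arms also differed in peaks, with 24.8 regions per Mb on 3q against 8.21 on 3p in the lactate library, and 23.1 against 5.92 in the untreated library.

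Arms of some other chromosomes differed too, though their gene densities were less alike. Protein-coding genes per Mb were 4.44 on 18p and 3.37 on 18q, and 6.24 on 10q and 4.16 on 10p. In the lactate library 24.2% of 339 regions on 18p had high background, against 1.04% of 383 on 18q, the arm that carries SMAD4. In the untreated library it was 15.8% of 292 against 0.337% of 297. Median relative background on 18p was 2.03 (lactate) and 2.08 (untreated) times that of 18q. On 7p, the arm of EGFR, the shares were 32.2% (lactate) and 28.4% (untreated), against 11.8% (lactate) and 7.28% (untreated) on 7q. On 10q they were 17.3% (lactate) and 12.6% (untreated). On 10p they were 1.79% of 336 regions (lactate) and 0 of 253 (untreated), where the exact 95% interval reaches up to 1.45%. On 8q they were 12.2% (lactate) and 8.56% (untreated), against 1.23% (lactate) and 0.333% (untreated) on 8p. In median relative background, the ratios of 9q over 9p and of 4p over 4q were larger than those of 7p over 7q and of 8q over 8p. This held in both libraries. Some other pairs differed less, with ratios of 1.06 (lactate) and 1.07 (untreated) for 5p over 5q. The ratios were 1.22 (lactate) and 1.16 (untreated) for 11q over 11p, and 1.22 in both libraries for 16q over 16p. The lowest arm in the lactate library was 4q, with 0.542% there and 0.504% in the untreated library. The highest was 16q, with 40.8% (lactate) and 36.6% (untreated), whose bins stood at 1.46 (lactate) and 1.56 (untreated) times bins of like gene number. The bins of 3p, 4q, 8p, 10p and 18q stood at 0.622 to 0.726 times in both libraries. Across 39 arms the shares of the libraries ranked alike, with a Spearman rho of 0.973. Gains of 3q, 7p and 8q and losses of 3p, 8p and 18q are recurrent in head and neck squamous carcinoma as background knowledge. Whether CAL27 carries them was not measured here.

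**Figure D4:**
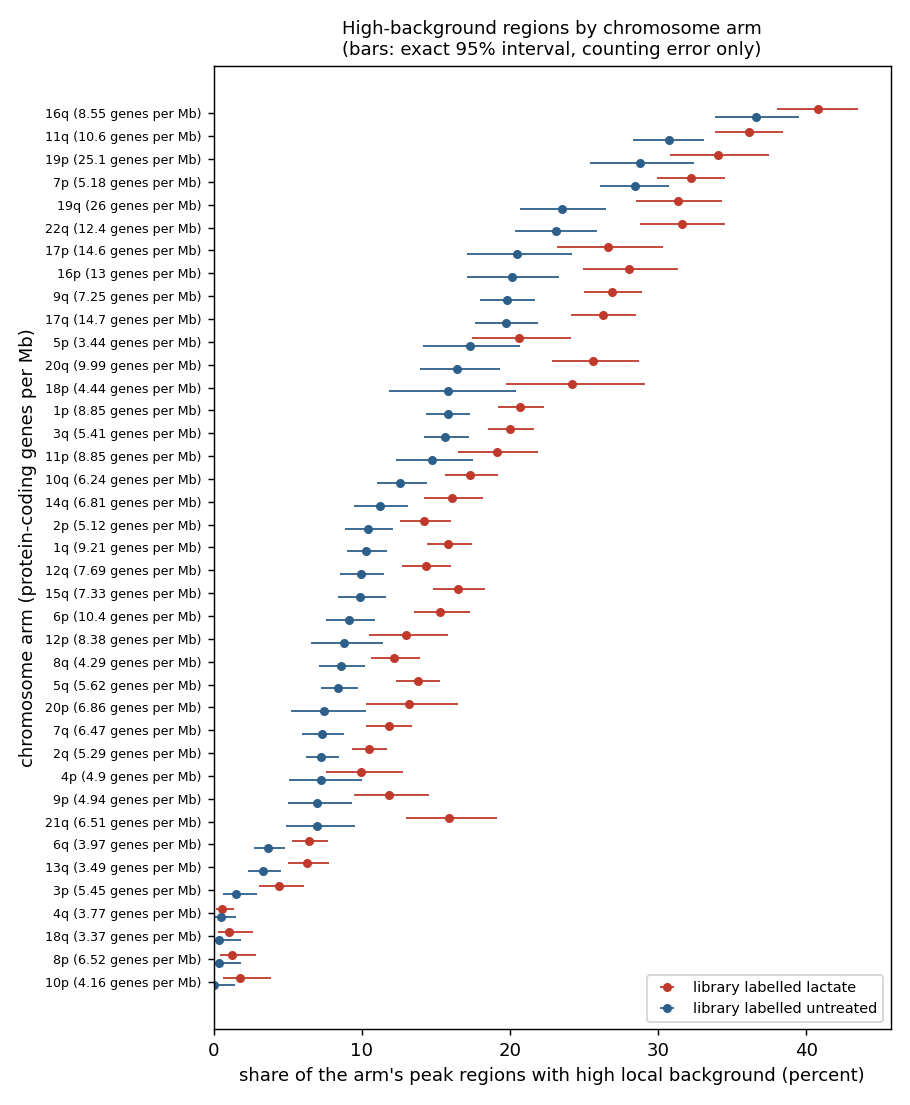
Share of the peak regions of each chromosome arm that had high local background, with exact 95% intervals for counting error, in the lactate library (red) and the untreated library (blue); arms are ordered by the untreated share and labelled with protein-coding genes per Mb. Arms 16q (lactate 40.8%, untreated 36.6%), 11q and 7p are near the top, and 4q, 18q, 8p and 10p are at the bottom in both libraries.

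Genes of recurrent copy-number change were read by the median relative background of all regions within 0.5 Mb, over that of chromosomes 1 to 22. Of 44 genes listed for gain and outside the left-out domain, 12 (27.3%) were at 1.5 or more in both libraries, against 17.2% of all 18789 protein-coding genes with a value. Of the 12, 7 lie at the cyclin D1 locus with overlapping windows, and without that locus 5 of 37 (13.5%) were raised, under the share of all genes. The median ratio was 1.16 in both libraries over the gain list, and 1.09 (lactate) and 1.1 (untreated) over all genes. Of 18 genes listed for loss with a value, 3 (16.7%) were at 1.5 or more, and 12 (66.7%) were under 1 in both libraries, against 38.5% of all genes. The listed genes were not matched for the number of genes around them. CD44 lies in the left-out domain and has no value here. CSMD1 and PTPRD, both listed for loss, had 0 regions near them in either library.

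Around TERT, which encodes the catalytic subunit of telomerase, 45 of 61 regions in the lactate library and 35 of 49 in the untreated library were of high background. Its ratio of 2.68 (lactate) and 2.58 (untreated) was the highest of the list. LAMA5, a laminin chain gene, had 2.45 (lactate) and 2.2 (untreated). The cyclin D1 neighbourhood was below it in the lactate library, and 3 of its genes were above it in the untreated library. CCND1, which drives entry into the cell cycle, had 31 of 54 (lactate) and 29 of 44 (untreated) regions over the threshold and ratios of 1.93 (lactate) and 2.29 (untreated). FGF19 had 1.95 (lactate) and 2.29 (untreated) and LTO1 1.94 (lactate) and 2.29 (untreated), and their windows share most regions with that of CCND1. FADD, the death-receptor adaptor gene, CTTN, the cortactin gene, ANO1, a chloride channel gene, and PPFIA1, a liprin gene, had ratios of 1.85 to 1.9 in the lactate library and 2 to 2.05 in the untreated library. PTK2, the focal adhesion kinase gene on chromosome 8, had 1.88 (lactate) and 1.74 (untreated).

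EGFR, named after its values were seen, had 34 of 72 regions of high background within 0.5 Mb in the lactate library and 32 of 63 in the untreated library, with ratios of 1.75 (lactate) and 1.92 (untreated). Inside the gene lay 12 (lactate) and 13 (untreated) such regions, with highest relative backgrounds of 17 (lactate) and 13 (untreated). The squamous lineage genes on 3q, also named after their values were seen, were not raised, since TP63 had 1.13 (lactate) and 1.09 (untreated), and SOX2 was below it with 0.782 (lactate) and 0.774 (untreated). Listing did not fix the direction, since NOTCH1 of the loss list had ratios of 2.36 (lactate) and 2.41 (untreated) and NSD1 had 1.87 (lactate) and 1.95 (untreated). NOTCH1 lies among 38 protein-coding genes per Mb and NSD1 among 22.3. By the mean of both libraries, the lowest 4 of the listed genes with at least 5 regions in each library were LRP1B at 0.443 (lactate) and 0.478 (untreated), TGFBR2 at 0.473 (lactate) and 0.509 (untreated), FHIT at 0.445 (lactate) and 0.542 (untreated) and FAT1 at 0.482 (lactate) and 0.538 (untreated). They encode a lipoprotein receptor-related protein, a receptor of transforming growth factor beta, a nucleotide hydrolase and a giant cadherin. No high-background region lay near any of these 4. DCC, a netrin receptor gene with 1 region (lactate) and 3 regions (untreated) near it, had ratios as low, 0.5 (lactate) and 0.478 (untreated). Protein-coding genes per Mb were 0.345 around LRP1B, 0.799 around FHIT, 2.76 around TGFBR2 and 6.15 around FAT1. The number was 0.911 around DCC and 0.997 around SOX2. Bins of 0 to 2 protein-coding genes had median ratios of 0.655 (lactate) and 0.67 (untreated), and SOX2 stood above both. Bins of 6 to 10 genes had 0.909 (lactate) and 0.915 (untreated).

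Many of the highest backgrounds were single sites at centromeres. Of 12 sites with a region of relative background 20 or more in either library, 5 lay in or within 1 Mb of a centromere. For each chromosome the longest stretch without an annotated gene stood in for the centromere, since the gene table used has no bands. Inside these stretches 29 of 74 regions (39.2%, 28 to 51.2) in the lactate library and 38 of 82 (46.3%, 35.3 to 57.7) in the untreated library had high background. Within 3 Mb outside them the shares were 21% (lactate) and 18.1% (untreated), and farther away 18.4% (lactate) and 13.6% (untreated). None of the high-background regions inside the stretches was at a gene end, which their choice fixes. The upper estimate of the peaks' own tags there had a median of 108% of the window's tags in both libraries; it passes the whole and so does not give the tags outside the peaks.

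On chromosome 3 from 93470259 to 93470899 a single region of 641 bp had a pileup of 1188 tags and a relative background of 52.4 in the lactate library, and 1343 tags and 59.3 in the untreated library. Regions within 1 Mb of it had medians of 2.35 (lactate) and 1.97 (untreated). On chromosome 5 from 49599455 to 49661887 the relative background reached 44.2 (lactate) and 58.8 (untreated), with flanking medians of 1.19 (lactate) and 1.11 (untreated). On chromosome 16 from 46387652 to 46401617 all 7 regions were high in both libraries, reaching 26.9 (lactate) and 36.3 (untreated). On chromosome 4 from 49147173 to 49153382, 440 kb from the gene-free stretch, 3 regions reached 23 in the lactate library and 29.3 in the untreated library. Regions within 1 Mb of the chromosome 16 site had medians of 3.05 (lactate) and 2.75 (untreated). The 1-Mb bin of the chromosome 4 site was raised as a whole, with 18 of 28 regions high in the lactate library and 21 of 27 in the untreated library. Flanks were higher at the dense sites of chromosomes 7 and 11, at 6.3 (lactate) and 5.68 (untreated) around the PRKAR1B site of chromosome 7 and 7.77 (lactate) and 7.16 (untreated) around NEAT1.

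Other dense sites were not at centromeres. On chromosome 18 from 107777 to 111059, at ROCK1P1, a partial pseudogene of the kinase gene ROCK1 near the end of the short arm, both regions had high background, reaching 51.7 in the lactate library and 52.2 in the untreated library. Its flanks had 2.01 (lactate) and 2.03 (untreated). On chromosome 1 from 629825 to 634249 lie MTND2P28 and MTATP6P1, nuclear copies of mitochondrial genes. This site is not isolated, since it lies in the wide stretch of chromosome 1 and its flanks had 4.78 (lactate) and 3.95 (untreated). MTND2P28 had a region in the lactate library alone, with a relative background of 29. Its 10-kb window overlaps that of MTATP6P1, with 1415 (MTND2P28) and 1414 (MTATP6P1) tags in the lactate library. The background at MTND2P28 is thus not separate from that at MTATP6P1. MTATP6P1 had 29 in the lactate library and 17.6 in the untreated library. The region at MTATP6P1 had a pileup of 926 (lactate) and 590 (untreated) tags and fold enrichments of 31.7 (lactate) and 31.4 (untreated). A site on chromosome 3 from 157087494 to 157130712 lay beside the lncRNA genes LINC00880 and LINC00881. It is on the 3′ side of the start of the cyclin L1 gene CCNL1, which lies on the minus strand. There 10 regions in each library were high and reached 22.5 (lactate) and 19.4 (untreated). That site lies in a bin of 3 protein-coding genes at 2.45 (lactate) and 2.75 (untreated) times like bins. Its flanks were raised too, at 3.75 (lactate) and 4.02 (untreated).

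The 3-Mb flanks of centromeres also held ordinary genes. On chromosome 7, 46 of 91 regions within 3 Mb were high in the lactate library and 39 of 90 in the untreated library. Of the high ones, 33 (lactate) and 30 (untreated) lay within 0.5 Mb of EGFR. Of all regions in this flank, 57 of 91 (lactate) and 51 of 90 (untreated) lay there. On chromosome 14, 45 of 77 (lactate) and 44 of 84 (untreated) regions within 3 Mb were high, with 18 (lactate) and 16 (untreated) at ends of protein-coding genes. The share of all regions of the chromosome 14 flank at gene ends was not counted. This flank includes APEX1, a base-excision repair gene, with 12.4 (lactate) and 10.7 (untreated) at its promoter, and RNASE7, an antimicrobial ribonuclease gene of epithelium, with 12.3 (lactate) and 11 (untreated). Both were named after their values were seen. Over all chromosomes the share of high-background regions within 3 Mb of a centromere was 4.04% (3.65 to 4.47) against 3.31% of the rest in the lactate library and 5.23% (4.67 to 5.83) against 3.43% in the untreated library. With the peaks' own tags taken off, the shares were 3.77% against 3.43% of the rest in the lactate library and 3.36% against 3.69% in the untreated library, where the direction turned.

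Summits near multicopy gene families did not show one direction across settings. Of 75 symbol prefixes listed 74 matched, with 2007 genes. Summits within 10 kb of such a gene were 1.2% (0.984 to 1.44) of the high-background regions and 1.74% of the rest in the lactate library, and 1.55% (1.25 to 1.9) and 1.76% in the untreated library. Among regions of fold enrichment at least 5 the order turned, with 1.96% (1.52 to 2.49) against 1.78% of the rest in the lactate library and 3.09% (2.3 to 4.06) against 1.78% (1.58 to 2) in the untreated library. The prefix of 5S ribosomal RNA genes, mostly pseudogenes, had 21 (lactate) and 19 (untreated) high-background regions and FAM86 had 13 in both libraries. All regions near each family were not counted, so these counts do not show whether a family had more than its share. The highest near a listed gene was by NBPF1, with 15.4 in the lactate library and 13.9 in the untreated library, at a distance of 7.67 kb. At DUX4, a gene of the D4Z4 macrosatellite, a region on chromosome 4 from 190179100 to 190180072 had 12.3 in the lactate library, against 12.5 in the untreated library, and a fold enrichment of 13.7 in the untreated library. The others named by the rule, from RNU1-123P at 10.7 to AQP7P1 at 8.08 in the lactate library, were lower. TBC1D3, a hominoid-specific family, had 4 high-background regions in the lactate library and 0 in the untreated library, a count too small to read.

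At regions found in both libraries the background per 1000000 tags was slightly higher in the lactate library. Over 6795 shared high-background regions the median ratio, lactate over untreated, was 1.17, with 89.8% above 1, against 1.06 and 65.9% over 23209 other shared regions. High-background regions in the lactate library helped choose this set, so the choice itself can give such a shift. A difference of 1.5-fold or more was rare. Of the high-background regions 103 (1.52%) were that much higher and 5 (0.0736%) that much lower in the lactate library, beside 1.16% (higher) and 0.147% (lower) of all shared regions. Scaled by the shared regions under the threshold, the share that was higher was 0.53%. The median ratio was 1.14 in the wide stretches and 1.19 at gene ends.

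Inside the gene-free centromere stretches the ratio ran the other way. Of 37 shared high-background regions there 0 had more background in the lactate library than in the untreated library, and the median ratio was 0.751. They come from 9 sites more than 100 kb apart and are not independent. The median background was 0.521 in the lactate library and 0.694 in the untreated library, per 1000000 tags. The chromosome 5 and 16 sites had ratios of 0.752 and 0.739, and the chromosome 3 site 0.883. The chromosome 4 site, just outside such a stretch, had 0.788. In contrast ROCK1P1 had 0.988, the dense site by NEAT1 1.29, that by C11orf68 and FOSL1 1.38, and MTATP6P1 1.64. Each of these site ratios compares the highest background of each library within the site. At NEAT1 the highest values came from different regions, so that ratio is not taken at a single place. A dense site of chromosome 2 from 94212507 to 94214434, 20 kb from the gene-free stretch, had 1.18, so nearness to a centromere alone did not go with a ratio under 1. This pattern was noticed in the data, rests on 1 library per group, and turns round if the lists were exchanged.

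**Figure D5:**
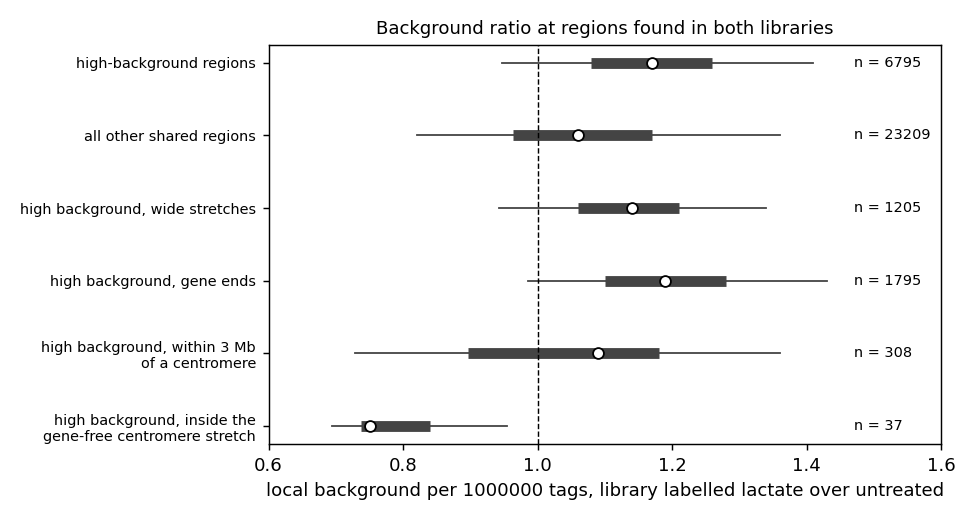
Local background per 1000000 tags in the lactate library over the untreated library at regions found in both, by class; circles are medians, thick bars hold the middle 50% and thin lines the middle 90% of regions. Medians lie at 1.06 to 1.19, except 0.751 for the 37 regions inside gene-free centromere stretches.

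At promoters the high-background regions differed little from other peaks in base composition. Of 33518 promoter windows 2429 were overlapped by a high-background region in the lactate library and 1346 in the untreated library. Their median GC content was 66% (lactate) and 65.7% (untreated). It was 65.3% in both libraries over promoters with a region under the threshold, and 53.3% (lactate) and 54.3% (untreated) over those with no region. GGGCGG, searched on both strands, was in 74.2% (72.4 to 76) of these promoters against 70.7% under the threshold in the lactate library. In the untreated library it was in 73.3% (70.9 to 75.7) against 71.5%, and it was in 45% of all promoters. TGACTCA, searched on both strands, was in 7.37% (6.36 to 8.48) against 4.17% (3.74 to 4.63) under the threshold in the lactate library. In the untreated library it was in 9.44% (7.93 to 11.1) against 4.16% (3.73 to 4.63), and it was in 4.92% of all promoters. The AP-1 element was thus more frequent under dense windows than under other peaks in both libraries, while the GC box was nearly as frequent under both. Promoter windows of 1 gene or of neighbouring genes can overlap and share a motif match, so the windows are not independent. The intervals take no account of this. A match of these letters is a description and not a bound site. The motifs were chosen after the regions' values were seen.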

How the data were processed

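CUT&Tag with a pan-lactyllysine antibody gave 1 library from CAL27 cells given lactate and 1 from untreated cells, with 15120031 (lactate) and 15696147 (untreated) tags per the file headers. The submitters' processing notes name fastp 0.20.0, BWA, MACS2 2.1.0 and the build hg38. Per the file headers MACS 2.1.0.20150420 called peaks in each library without a control (q threshold 0.05, shift -100 bp, extension 200 bp, regional window 10000 bp, effective genome size 3099750718). The authors' deposited pileup is a signal in tags at each summit, not scaled for depth, and the deposited fold enrichment is a ratio of pileup to local background with 1 added to both. All duplicates left in the input were kept, per the file headers, and the sources used here do not say how reads from repeats were mapped.

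From these, the background was recomputed as (pileup + 1) / fold − 1. Summits of the same start and end were collapsed to 1 region, represented by its summit of highest fold. The lowest background, 0.976 in the lactate library and 1.01 in the untreated library, equals the genome-wide rate from the tags. Background times 50 gave whole tags per 10 kb, within 0.05, for 100% of values above the floor. Tags of called regions within 5 kb were estimated as pileup times length over 200.

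Genes and promoters came from RefSeq for GRCh38.p14. Genes listed at scaffold coordinates were left out. The table has no bands, so bands were not called and arms were split at the longest gene-free stretch. No genome was used, so no region sequence was printed. The members and lists were chosen with earlier results of these data known. Named genes were those in the 12 fullest bins, the wide stretches and the 10 highest regions of each library, with up to 4 genes each by highest background, all listed copy-number genes in a stretch plus the 6 highest and 4 lowest, and up to 8 multicopy genes. A gene that this rule names is not reported here. Thresholds, bins, overlaps, scaling and windows were varied. Overlaps were checked against bedtools 2.31.1, and the computations were tested on simulated data. Computations used Python 3.11.15 with matplotlib 3.10.9, SciPy 1.17.1, numpy 2.4.6 and pandas 2.3.3.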

Additional observations from a re-analysis of the deposited data

Results flagged for a closer look

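Outside chromosomes 1 to 22, high local background appeared on sequences that the comparisons above left out. The mitochondrial genome had median relative backgrounds of 5344.2 (lactate) and 2801.5 (untreated). All 8 of its regions in the lactate library and all 8 in the untreated library were at 4 times the lowest background or more. On unplaced sequences 99 of 197 regions (50.3%) in the lactate library and 110 of 220 (50%) in the untreated library were, against 18.6% (lactate) and 13.8% (untreated) on chromosomes 1 to 22. On the X chromosome 15 of 849 regions in the lactate library and 3 of 653 in the untreated library were. In the left-out domain of chromosome 11, 157 of 207 regions in the lactate library and 163 of 209 in the untreated library were.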

How the results depend on the processing

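The count of high-background regions depends on the threshold, which divides a smooth distribution. No paired analysis was possible because each group has 1 library and no test was run, and leaving out a library leaves no comparison. At 3 times the lowest background there were 16187 (lactate) and 11766 (untreated) regions, of which 71.3% (lactate) and 84.1% (untreated) were shared, 3.6% (lactate) and 4.18% (untreated) near centromeres and 25.1% (untreated) at gene ends. At 6 times there were 3204 (lactate) and 1648 (untreated) in 605 bins, with 5.65% (lactate) and 9.1% (untreated) near centromeres, 23.8% (lactate) and 22.5% (untreated) at gene ends, 1.59% (lactate) and 2.06% (untreated) at multicopy families against 1.64% (lactate) and 1.72% (untreated) of the rest, and 87.6% (untreated) shared. With a fold enrichment of at least 5 there were 3367 (lactate) and 1617 (untreated), with 4.75% (lactate) and 7.42% (untreated) near centromeres, 29.2% (lactate) and 26.4% (untreated) at gene ends, 1.96% (lactate) and 3.09% (untreated) at multicopy families, and 62.4% (lactate) shared. With the peaks' own tags taken off there were 2415 (lactate) and 1814 (untreated) in 514 bins, 59.9% (lactate) and 78.1% (untreated) shared, and 0.497% (lactate) and 0.772% (untreated) at multicopy families. Gene ends then took 23.6% (lactate) and 22.3% (untreated), against 19.5% (lactate) and 19.1% (untreated) of the rest. The share near centromeres was then 3.36% in the untreated library, against 3.69% of the rest there, so its direction turned. The multicopy shares turned above those of the rest in both libraries at a fold of at least 5, and in the untreated library at 6 times. Taking the summit of highest pileup moved no share beyond its interval.

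The 12 wide stretches numbered 10 to 18 with 1 choice changed at a time, the 10 with no short bin allowed inside a run, a choice made after seeing the data, except that a limit of 2 times the median left 2, on chromosome 7 from 0 to 7 Mb and chromosome 11 from 63 to 68 Mb. Requiring an overlap of 50% of both regions gave 59.6% (lactate) and 69.4% (untreated) shared. Scaling by shared regions under the threshold lowered the share that was 1.5-fold higher to 0.53%. Other windows moved the shares by construction, to 0.901% (lactate) and 1.55% (untreated) within 1 Mb and 6.11% (lactate) and 7.07% (untreated) within 5 Mb of centromeres, 47.6% (lactate) and 45.6% (untreated) within 5 kb of gene ends, and 0.264% (lactate) and 0.358% (untreated) inside multicopy genes. Arms with few regions have wide intervals.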
